A study of Mus musculus with 36 samples.

Results

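The diaphragm of mdx mice at 56 days was compared with the diaphragm of control mice of the same age, across all genes on the array. Total RNA had been hybridised to 1-colour Affymetrix arrays, with 3 mdx arrays and 3 control arrays at this age, which are 6 of the 36 arrays of a series that covers both genotypes from 7 to 112 days. The mdx mouse carries a point mutation of the dystrophin gene Dmd in every cell, which stops production of full-length dystrophin. The labels name the 2 groups mdx and control and give no strain, sex, pooling or treatment. They number the replicates without tying each number to an animal of its own. The p-values therefore reflect scatter among arrays alone, which could be technical. That scatter was estimated for each probe set within the groups of all 36 arrays together. Of 12488 probe sets, each a group of probes that reads 1 transcript or a few related ones, 9291 passed a filter on low signal, and these covered 6794 genes.

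Dystrophin ties the actin skeleton of a muscle fibre to laminin outside it, and fibres without it tear during contraction, die and are rebuilt from satellite cells. The diaphragm contracts throughout life and is the mdx muscle known to lay down the most connective tissue, a matrix of collagens, glycoproteins and proteoglycans made mostly by fibroblasts. To keep working it burns fatty acids and glucose in mitochondria. A piece of diaphragm also holds vessels, nerve, fat, immune cells and a mesothelial lining on both faces, with the liver lying against it.

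A pair of arrays stood apart from the rest of their groups. Albumin, a liver product, read 347, 307 and 179 in mdx arrays, against 15483, 2577 and 668 in control arrays, highest on control replicate 1. The highest signal on mdx replicate 1 was 23858, against 38184 or more on each of the other 5 arrays, and its brightest muscle genes read low. The median signal of an array was 670 to 723 in mdx and 552 to 606 in controls. For actin, the signal of the 3′ control probe set over that of the 5′ one, a measure of RNA integrity, was 0.350 to 1.17 in mdx arrays and 1.01 to 1.21 in controls. The same ratio for Gapdh was 0.198, 0.888 and 0.128 in mdx arrays, against 0.761, 0.542 and 0.152 in control arrays, a wide spread within both groups. Arrays of 1 group correlated at r = 0.910 to 0.942 in mdx and 0.939 to 0.954 in controls. The leading principal component of the 6 arrays held 49.5% of the variance and put the mdx arrays at 23.2 to 41.3 and the controls at -41.1 to -16.5. Skeletal muscle genes were bright on all 6 arrays: Myh7, the slow myosin heavy chain, read 20455, 31209 and 27236 in mdx arrays, against 43060.2, 45624 and 36621 in control arrays.

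At 56 days 861 of 9291 probe sets were higher in mdx diaphragm (9.27%) and 686 were lower (7.38%), together 16.7%, at an adjusted p under 0.05 by limma. These probe sets named 731 genes that rose and 601 that fell. Differences are given as mdx minus control on the scale log2(signal + 32) with their standard error (SE, n = 3 arrays a group), which understates the change of a dim gene. A difference of at least 1 on this scale was seen for 375 of the rises and 161 of the falls. The mdx and control arrays did not overlap at 24.2% of probe sets with mdx higher and at 12.7% with mdx lower. The median difference of all probe sets was 0.15, and the share of calls that were rises was 55.7%. Quantile normalization moved that median to 0.00 and gave 620 rises and 701 falls, so 46.9% of calls were rises. Centring each array on its median moved it to -0.04 and gave 478 rises and 1161 falls, or 29.2% rises. Leaving out mdx replicate 1 left 501 rises and 486 falls, leaving out control replicate 1 left 568 and 454, and leaving out control replicate 2 left 550 and 462. Some probe sets are marked by the array maker as shared within a gene family, among them those of Myh7, Mup3, Pvalb, Ces1d, Rpl41, Rps28 and Cox6c, and cannot tell the members of the family apart.

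The mutated gene itself was lower in mdx diaphragm. Dmd read 193, 182 and 244 in mdx arrays, against 800.2, 551 and 669 in control arrays, groups that did not overlap, and differed by -1.56 ± 0.30, adjusted p = 4.55e-04. A point mutation leaves the transcript's sequence in place, so this level is no check of the genotype. Utrn, the closest relative of dystrophin, read 730.1, 641 and 699.7 in mdx arrays, against 409, 575 and 740.1 in control arrays on 1 of its 2 probe sets, and the groups overlapped. Its differences of 0.29 ± 0.28 (adjusted p = 0.497) and 0.43 ± 0.39 (adjusted p = 0.467) did not pass the test.

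**Figure D1:**
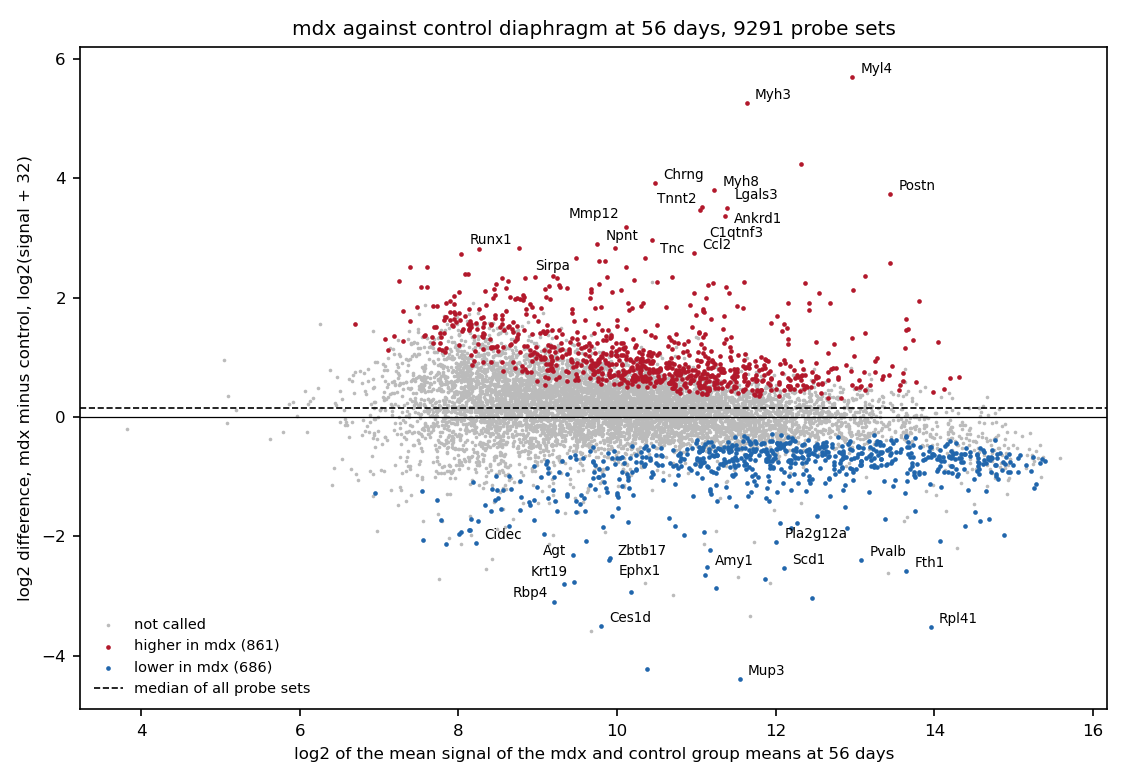
Each point is 1 of the 9291 probe sets, with the log2 of the mean signal of the mdx and control group means at 56 days on the horizontal axis and the log2 difference, mdx minus control, on the vertical axis. Red points are the 861 probe sets called higher in mdx, blue points the 686 called lower and grey points those not called, the dashed line marks the median difference of 0.15, and Myl4 and Myh3 stand highest and Mup3 lowest among the probe sets with a gene symbol.

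The widest rises included genes known from fibre rebuilding, from the matrix and from myeloid cells. Myl4, an embryonic and atrial myosin light chain, read 15179.6, 16622 and 15439 in mdx arrays, against 315, 232 and 274 in control arrays (5.70 ± 0.26, adjusted p = 1.28e-16). Myh3, the embryonic myosin heavy chain, read 6456, 6518 and 5695 in mdx arrays, against 96.4, 162 and 140.3 in control arrays (5.26 ± 0.45). Postn, periostin, a matrix protein that binds collagen, read 18863, 24604 and 18659 in mdx arrays, against 1413, 1385 and 1779.5 in control arrays (3.73 ± 0.16, adjusted p = 1.22e-16). The 15 widest rises were taken among called probe sets whose groups did not overlap, so separate arrays in these genes follow from that choice. The other rises among the 15 widest were Chrng (3.92), Myh8 (3.81), Tnnt2 (3.52), Lgals3 (3.51), C1qtnf3 (3.47), Ankrd1 (3.36), Mmp12 (3.19), Tnc (2.96), Npnt (2.90), Runx1 (2.83), Ccl2 (2.75) and Sirpa (2.67).

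**Figure D2:**
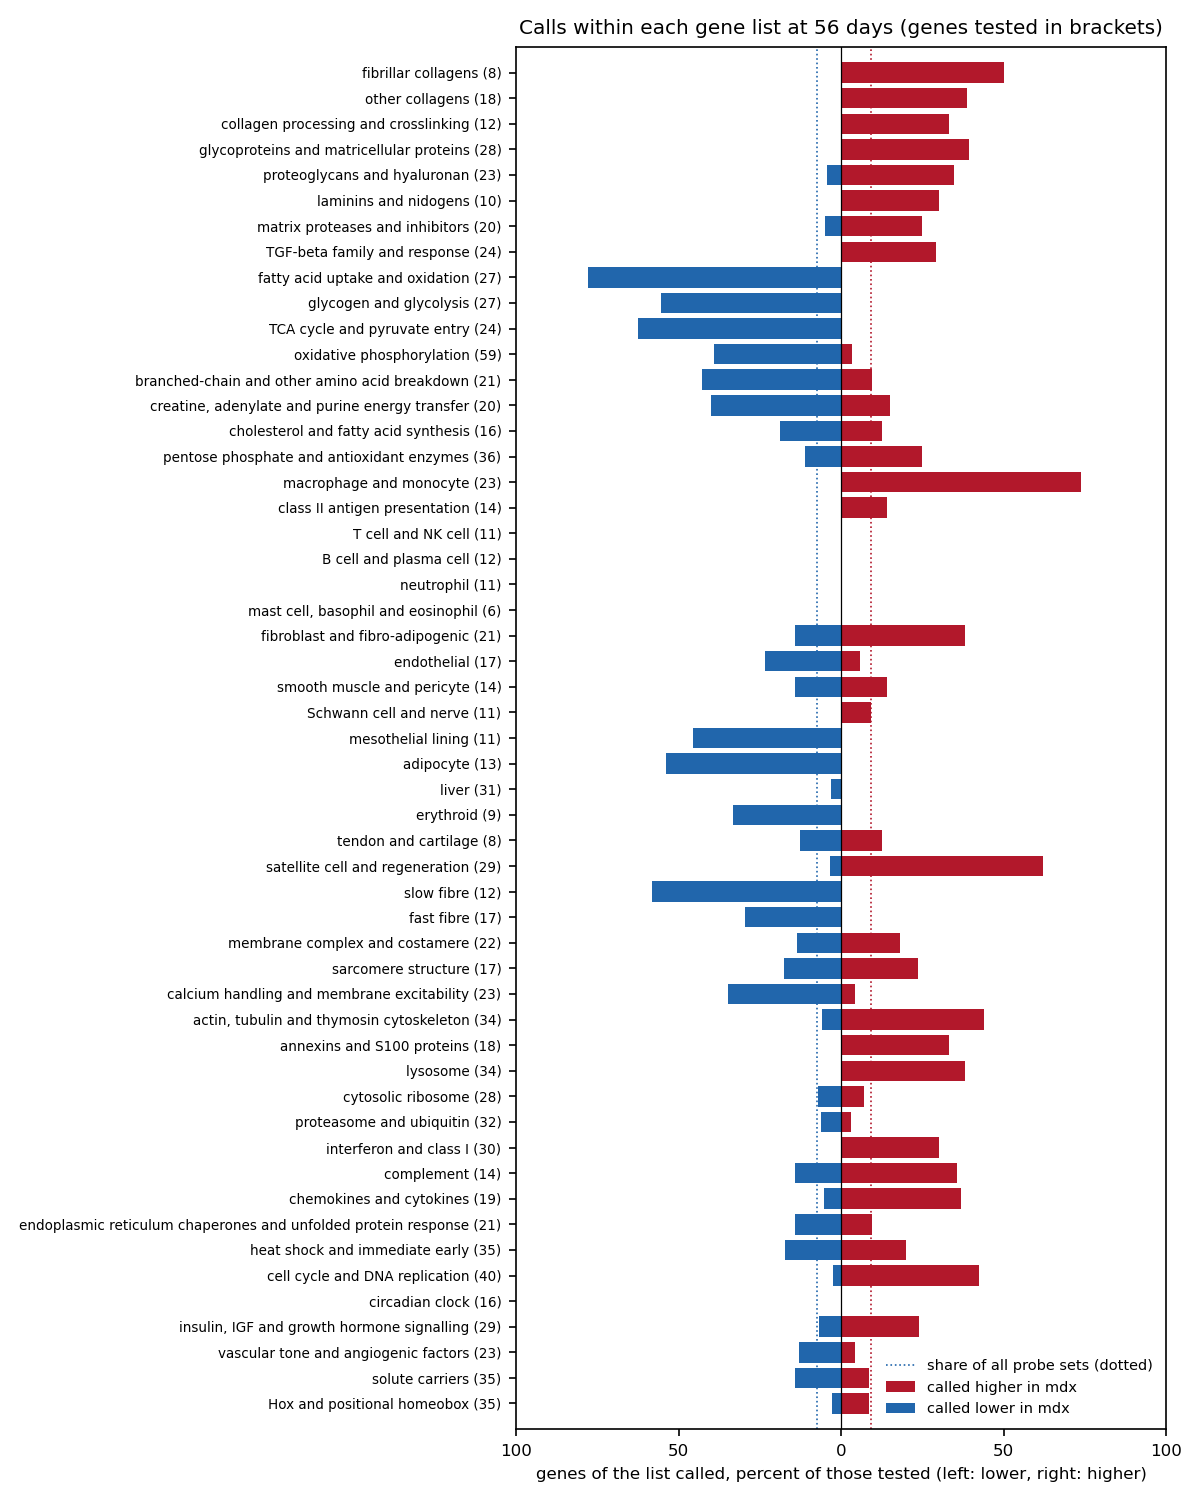
For each gene list the bars give the percent of its tested genes that were called, red to the right for higher and blue to the left for lower in mdx, with the number of tested genes in brackets. Dotted lines mark the shares among all probe sets, 9.27% higher and 7.38% lower, and the macrophage, regeneration and matrix bars reach to the right while the fuel-use and slow fibre bars reach to the left.

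Each of the 8 matrix lists held genes that rose. Of 143 genes kept from 8 matrix lists, 49 rose and 2 fell, or 34.3% and 1.40%, against 9.27% and 7.38% of all probe sets. The 49 rises became 31 without mdx replicate 1, 33 in the fit of the 56-day arrays alone and 28 when each array was centred on its median. The summed signal of macrophage markers was 85608, 82606 and 69649 in mdx arrays, against 22903, 28069 and 24229.8 in control arrays, and that of fibroblast markers was 109351, 142877 and 124363 in mdx arrays, against 116403, 111688 and 107447 in control arrays. Their part in the matrix result was not tested, and in a piece of tissue more or fewer cells of a type and more or less RNA per cell cannot be told apart.

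Among fibrillar collagens, the ropes of connective tissue, 4 of 8 kept genes rose and the median difference was 0.72. Col1a2, a chain of type I collagen, read 18659.7, 19503 and 14517 in mdx arrays, against 7758, 7569.5 and 8069 in control arrays (1.16 ± 0.15, adjusted p = 1.94e-06). Col5a2, a chain of type V collagen that is built into type I fibrils, read 13150.4, 14809.7 and 11244 in mdx arrays, against 4356, 4849.9 and 5443 in control arrays (1.41 ± 0.14, adjusted p = 2.11e-08). Both genes had every mdx array above every control array. Col3a1, type III collagen, rose on each of 3 probe sets, by 0.65 ± 0.15 on the brightest, 1.83 ± 0.15 and 1.31 ± 0.20. The brightest of them read 20358, 26951 and 21608 in mdx arrays, against 13819, 13154 and 16791 in control arrays, and it missed the threshold when each array was centred on its median (adjusted p = 0.0543). Col5a1 rose by 0.78 ± 0.15. Col1a1, the partner of Col1a2, is named here after its values were seen: it read 13180.2, 43236 and 27289.8 in mdx arrays, against 24568, 20493 and 21018 in control arrays. The mdx arrays of Col1a1 lay on both sides of the controls, with mdx replicate 1 lowest of all 6 arrays, and the difference was 0.19 ± 0.34, adjusted p = 0.747.

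Of 18 other collagens 7 rose, with a median of 0.60, and 4 did so without mdx replicate 1 or without control replicate 2. Col6a3, part of the microfibrils that surround muscle fibres, read 19898, 21480.5 and 14714 in mdx arrays, against 6223, 6149 and 7965 in control arrays (1.45 ± 0.14, adjusted p = 1.16e-08). Its partner Col6a1 rose by 0.64 ± 0.13. Col8a1, a short-chain network collagen, read 2541, 3197 and 2358 in mdx arrays, against 1021, 1130.2 and 1133 in control arrays (1.27 ± 0.18). Col15a1, found next to basement membranes, rose by 0.67 ± 0.14. Col14a1, which coats fibrils, rose by 0.60 ± 0.17 and missed the threshold without mdx replicate 1 (adjusted p = 0.128) or without control replicate 2 (0.116). Of the enzymes and chaperones that make collagen, 4 of 12 rose, and 2 without mdx replicate 1. Lox, the enzyme that crosslinks collagen and elastin, read 2324, 1790.1 and 1757 in mdx arrays, against 683, 909 and 1274 in control arrays (1.04 ± 0.20, adjusted p = 5.83e-04). Bmp1, which trims procollagen, rose by 0.90 ± 0.19 on 1 probe set and 0.86 ± 0.22 on the other. The collagen chaperone Serpinh1 rose by 0.45 ± 0.13, with an adjusted p of 0.0538 without mdx replicate 1 and 0.105 without control replicate 2. Crtap, part of the prolyl hydroxylation complex, rose by 0.58 ± 0.18 and lost its call without mdx replicate 1 or 2 or control replicate 1 or 2 (adjusted p 0.202, 0.0614, 0.101 and 0.0973).

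Glycoproteins that organise the matrix included Postn, the widest rise among matrix genes, and 11 of 28 rose (median 0.44). Tnc, tenascin C, a protein of repairing tissue, read 2888, 3017 and 1596 in mdx arrays, against 278, 295 and 270.1 in control arrays (2.96 ± 0.29, adjusted p = 1.47e-08), and its dimmer probe set rose by 2.73 ± 0.42. Ccn4, a secreted protein of the Wnt pathway, read 994, 880.5 and 678 in mdx arrays, against 144, 75.0 and 232 in control arrays (2.35 ± 0.29). Mfap2 and Mfap5, which sit on fibrillin microfibrils, rose by 1.31 ± 0.21 and 0.96 ± 0.21. A second Mfap5 probe set gave 0.06 ± 0.36 (adjusted p = 0.924).

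Most calls among proteoglycans were rises: 8 of 23 rose (34.8%) and 1 fell (4.35%, below the 7.38% of all probe sets). The median of 0.53 was 0.21 after quantile normalization and 0.26 with the filter at percentile 60. Without mdx replicate 2 the falls numbered 2. The count of rises was 5 without mdx replicate 1, 5 without mdx replicate 2 and 4 without control replicate 2. Lum, lumican, read 12635, 12648 and 13362 in mdx arrays, against 6488, 6992 and 6554 in control arrays (0.94 ± 0.12, adjusted p = 8.04e-07). Fmod, fibromodulin, which like lumican binds collagen fibrils, read 2676, 2001 and 1255 in mdx arrays, against 4410.3, 4138 and 5291 in control arrays (-1.27 ± 0.25, adjusted p = 6.84e-04). The 2 related proteoglycans thus differed in sign, and neither had arrays that overlapped between the groups. Vcan, versican, rose by 0.92 ± 0.22, and Cd44, the hyaluronan receptor, by 1.71 ± 0.39. Hspg2, perlecan, rose by 0.53 ± 0.16 and missed the threshold without mdx replicate 1 (adjusted p = 0.0916), control replicate 2 (0.0830) or control replicate 3 (0.0622). Agrn, agrin, rose by 0.62 ± 0.16 on its brighter probe set, while the other gave -0.92 ± 0.36 (adjusted p = 0.0694). Of 10 laminins and nidogens, the proteins of the basement membrane, 3 rose: Lama2, Lamb1 and Lamc1, by 0.48 ± 0.14, 0.40 ± 0.13 and 0.89 ± 0.31. None of the 3 was called without mdx replicate 1, control replicate 1 or control replicate 2, nor after quantile normalization, and at an unadjusted p under 0.05 the list had 3 rises in the full fit.

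Among proteases of the matrix and their inhibitors 5 of 20 rose and 1 fell (median 0.64). Mmp12, the elastase of macrophages, read 2891, 1586 and 1439.8 in mdx arrays, against 37.8, 378 and 286 in control arrays (3.19 ± 0.45, adjusted p = 7.86e-06). Timp1, an inhibitor of matrix metalloproteinases, read 7227, 6698 and 7637 in mdx arrays, against 1436, 2079 and 2238 in control arrays (1.91 ± 0.24, adjusted p = 1.40e-06). Adam19 (1.62 ± 0.32), Mmp14, the collagenase at the cell surface (1.01 ± 0.26), and Serpinf1 (0.63 ± 0.19) also rose, the last with an adjusted p of 0.0919 without mdx replicate 1 and 0.155 without control replicate 1. Timp3, a second inhibitor, fell by 0.64 on the log2 scale (SE 0.19), and that call was lost without mdx replicate 1 or 2 or control replicate 2 (adjusted p 0.0682, 0.0986 and 0.0774). Of 24 genes of the TGF-beta family and its response, 7 rose (median 0.55), and 3 without mdx replicate 1. Tgfb1, the ligand best known for driving collagen synthesis, read 1144, 214 and 454 in mdx arrays, against 156, 72.8 and 70.4 in control arrays (2.04 ± 0.42, adjusted p = 0.00101). Its mdx values spread widely, from 214 to 1144, yet all lay above the controls. The secreted protein Fstl1 rose by 0.92 ± 0.18 and the ligand Bmp4 by 0.75 ± 0.17, although a second Bmp4 probe set gave 0.09 ± 0.28 (adjusted p = 0.853). Tgif1 and Smad2 rose by 0.95 ± 0.25 and 0.75 ± 0.21. Both missed the threshold without mdx replicate 1 (adjusted p 0.0577 and 0.0955), and Smad2 also without control replicate 2 (0.0663).

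Many genes of fuel use fell. Of 137 genes kept from the lists of fatty acid oxidation, glycogen and glycolysis, the TCA cycle and oxidative phosphorylation, 74 fell and 2 rose, or 54.0% and 1.46%, against 7.38% and 9.27% of all probe sets. The 74 falls became 45 without mdx replicate 1, 34 after quantile normalization and 30 in the fit of the 56-day arrays alone. These genes are among the brightest on the array, where mdx replicate 1 read low: the summed signal of oxidative phosphorylation genes was 618993, 1199880.0 and 979360.0 in mdx arrays, against 1444710.0, 1550510.0 and 1208060.0 in control arrays. The summed signal of cytosolic ribosome genes, another bright list, was 246003, 524622 and 408500.0 in mdx arrays, against 497489, 528595 and 434763 in control arrays. The counts without that array are therefore given for each list.

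Fatty acid oxidation fell in most of its genes: 21 of 27 genes fell (median -0.70), 17 without mdx replicate 1 and 13 after quantile normalization. Slc25a20, which carries acylcarnitines into mitochondria, read 4794, 4975 and 6659 in mdx arrays, against 12766, 14134 and 12145 in control arrays (-1.26 ± 0.14, adjusted p = 1.11e-07). Cd36, which takes up fatty acids at the cell surface, read 1580.1, 1762 and 2189 in mdx arrays, against 4524, 4809.6 and 4506 in control arrays (-1.32 ± 0.19, adjusted p = 7.86e-06). The mdx arrays stayed below the lowest control in both. Cpt2, which returns acyl groups to coenzyme A inside mitochondria, read 9282, 9666 and 9530.2 in mdx arrays, against 17261, 19110.5 and 17547 in control arrays (-0.92 ± 0.15). Echs1, a hydratase of beta-oxidation, differed by -1.15 ± 0.19 and Acadm, the medium-chain dehydrogenase, by -0.87 ± 0.16. Acadm missed the threshold after quantile normalization (adjusted p = 0.0753). The regulators Ppargc1a and Ppara, named after their values were seen, were also lower. Ppargc1a, a coactivator of mitochondrial genes, read 363, 319.7 and 449 in mdx arrays, against 876, 569 and 973 in control arrays (-1.01 ± 0.29, adjusted p = 0.0134). Ppara, a fatty acid receptor of the nucleus, read 1662, 2672 and 2373 in mdx arrays, against 2922, 2834 and 3981 in control arrays (-0.54 ± 0.19, adjusted p = 0.0446).

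In the list of glycogen and glycolysis 15 of 27 genes fell (median -0.76), 11 without mdx replicate 1 and 11 after quantile normalization. Gbe1, the glycogen branching enzyme, read 1285, 845 and 1070.5 in mdx arrays, against 2444, 2129 and 2431 in control arrays (-1.12 ± 0.18, adjusted p = 5.98e-05). Gys1, muscle glycogen synthase, read 11743, 17489 and 18112 in mdx arrays, against 27868, 28254 and 22993 in control arrays (-0.76 ± 0.14). Slc2a4, the insulin-regulated glucose transporter of muscle and fat, read 9772, 8409.6 and 11057 in mdx arrays, against 19597, 20504 and 16866 in control arrays (-0.96 ± 0.19). Each of these groups was separate, so synthesis of glycogen and uptake of glucose were both represented among the falls. Hexokinase Hk2 differed by -0.68 ± 0.13 and Pgam2, the muscle phosphoglycerate mutase, by -1.03 ± 0.19. Of the TCA cycle list 15 of 24 fell (median -0.66), 12 without mdx replicate 1 but 5 after quantile normalization. Ogdh, the 2-oxoglutarate dehydrogenase, read 14626, 14153 and 15595 in mdx arrays, against 23303, 23795 and 23287 in control arrays (-0.67 ± 0.11, adjusted p = 1.35e-04). Suclg1 and Sucla2, subunits of succinyl-CoA ligase, differed by -0.74 ± 0.13 and -0.64 ± 0.12, Idh3a, isocitrate dehydrogenase, by -0.71 ± 0.14, and Me1, cytosolic malic enzyme, by -0.97 ± 0.16. After quantile normalization Ogdh, Suclg1, Sucla2 and Gys1 missed the threshold (adjusted p 0.483, 0.233, 0.663 and 0.0738).

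For oxidative phosphorylation, the respiratory chain and ATP synthase, the count of falls moved with single arrays. In the full fit 23 of 59 genes fell and 2 rose (median -0.60). The count of falls was 5 without mdx replicate 1, 37 without mdx replicate 2, 11 without control replicate 1, 10 without control replicate 2 and 5 after quantile normalization. Ndufs4, a subunit of complex I, read 789.8, 738 and 1026 in mdx arrays, against 1596, 1637 and 1489.7 in control arrays (-0.88 ± 0.20, adjusted p = 0.00236) and passed in each of these fits. Cox6c, a subunit of cytochrome oxidase, read 22096, 38891 and 38096 in mdx arrays, against 56244, 55937 and 47716 in control arrays (-0.73 ± 0.18, adjusted p = 0.00426). Its adjusted p was 0.0573 without mdx replicate 1, and 2 dimmer probe sets gave -0.20 ± 0.61 and 1.91 ± 0.71, neither called. Ndufa3 and Ndufs1 of complex I differed by -0.80 ± 0.19 and -0.52 ± 0.13 and cytochrome c, Cycs, by -0.92 ± 0.22. Ndufa3 and Ndufs1 missed the threshold after quantile normalization (adjusted p 0.0797 and 0.942). The rises were of dim probe sets of Cox5a (1.72 ± 0.54) and Ndufc2 (1.94 ± 0.68), each lost without mdx replicate 2 or 3 or control replicate 1 or 2 (adjusted p 0.0550, 0.0864, 0.0511 and 0.196 for Cox5a, and 0.107, 0.0815, 0.126 and 0.167 for Ndufc2). Ndufc2 was also lost without mdx replicate 1 (0.0936).

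**Figure D3:**
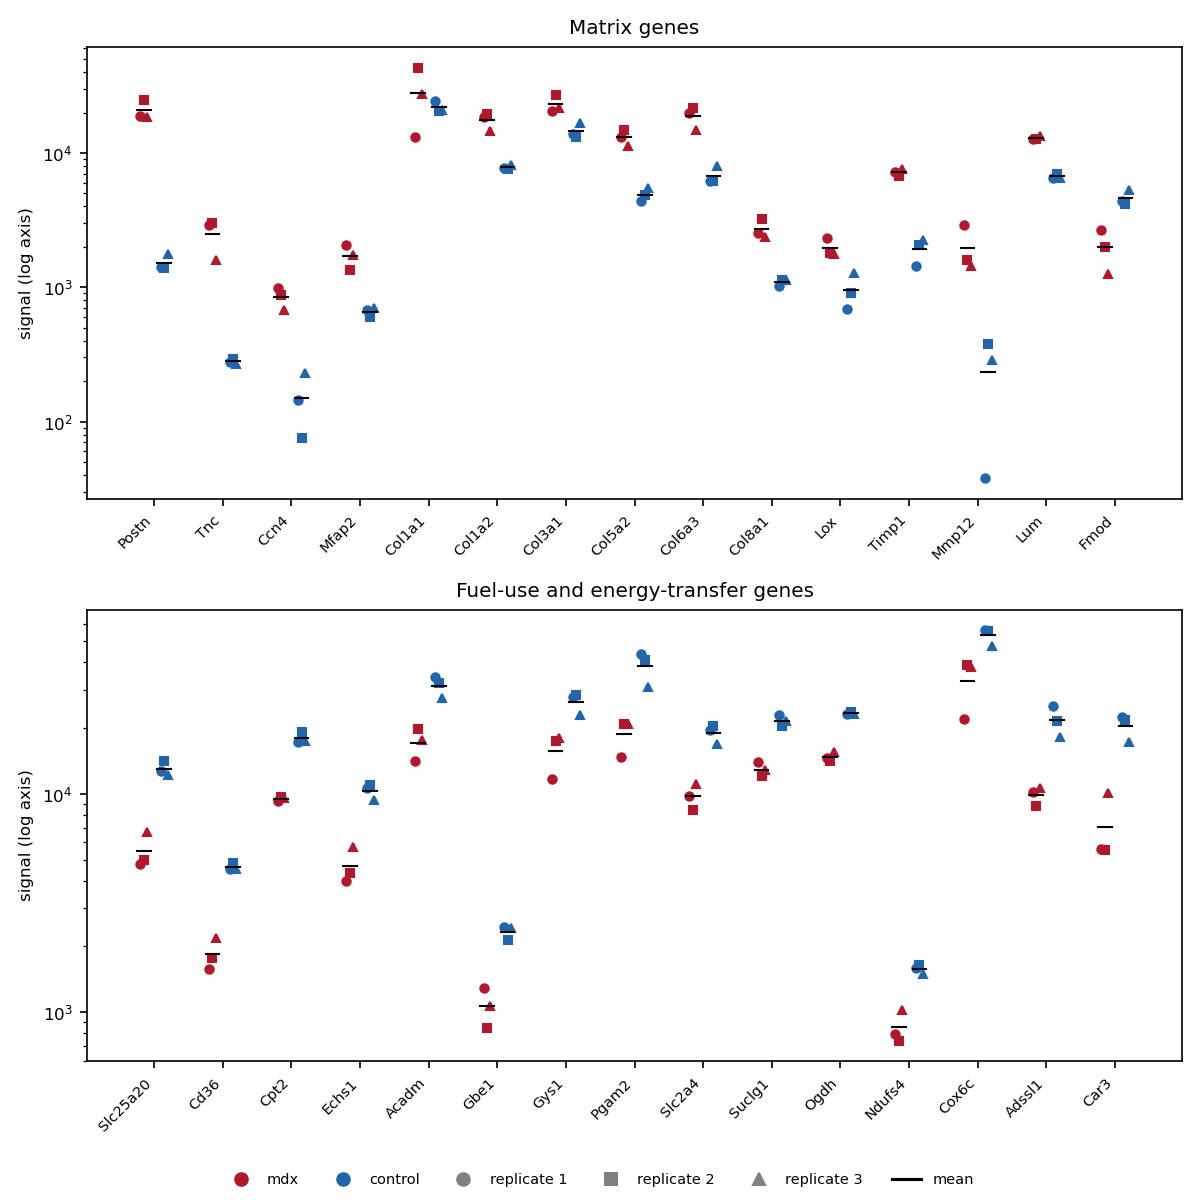
Signal of matrix genes (upper panel) and of fuel-use and energy-transfer genes (lower panel) on each of the 6 arrays at 56 days, on a log axis, with mdx in red left of control in blue, a marker shape for each replicate number and a bar for the mean of the 3 arrays. Postn, Tnc and Timp1 stand clear of the controls in all 3 mdx arrays, the mdx arrays of Col1a1 lie on both sides of the controls, and each fuel-use gene drawn has its mdx arrays below its controls, with mdx replicate 1 lowest for Cox6c, Pgam2 and Gys1.

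The handling of amino acids and of phosphate energy showed opposed genes inside a pathway. In the list of creatine, adenylate and purine energy transfer 8 of 20 fell and 3 rose, 1 without mdx replicate 2, control replicate 1 or control replicate 2. Gatm, which makes the precursor of creatine, read 4068, 3958 and 3193 in mdx arrays, against 761, 763 and 818 in control arrays (2.21 ± 0.21, adjusted p = 5.01e-09). Adssl1, the muscle enzyme of the purine nucleotide cycle, read 10252, 8804 and 10660.4 in mdx arrays, against 25208, 21677 and 18293 in control arrays (-1.12 ± 0.14, adjusted p = 1.10e-06). Both had arrays of the 2 groups fully apart, in opposite directions. Gamt, which completes creatine, rose by 0.54 ± 0.18 on its brighter probe set and 1.87 ± 0.23 on the dimmer one. The brighter one missed the threshold without mdx replicate 1 or 2 or control replicate 1 or 2 (adjusted p 0.0749, 0.0941, 0.0880 and 0.109). The adenylate kinases Ak1 and Ak3 differed by -0.95 ± 0.19 and -1.17 ± 0.19, with a second Ak3 probe set at -0.12 ± 0.30 (adjusted p = 0.815), the outer mitochondrial channel Vdac3 by -0.84 ± 0.13 and carbonic anhydrase Car3, abundant in slow muscle and fat, by -1.58 ± 0.24. Of genes for branched-chain and other amino acid breakdown 9 of 21 fell, led by Oat (-0.77 ± 0.14), Hibadh (-1.11 ± 0.22), Bckdhb (-0.96 ± 0.20), Hibch (-1.01 ± 0.25) and Oxct1 (-0.48 ± 0.12). Bcat1, the cytosolic branched-chain transaminase, read 833, 989 and 281 in mdx arrays, against 107, 124 and 174 in control arrays (1.98 ± 0.52) and missed the threshold without mdx replicate 2 (adjusted p = 0.0526). Glul, glutamine synthetase, rose by 0.83 ± 0.27 on 1 probe set and gave 0.00 ± 0.29 on the other. The call was lost without any 1 of the mdx arrays or without control replicate 1 or 2 (adjusted p 0.123, 0.0522, 0.0564, 0.182 and 0.0774).

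Lipid synthesis genes moved in both directions: 3 of 16 fell and 2 rose, 1 without mdx replicate 1 or 2 or control replicate 1 or 2. Scd1, stearoyl-CoA desaturase, read 3568, 2608 and 3670.2 in mdx arrays, against 12297, 13820.3 and 9914 in control arrays on its brightest probe set (-1.86 ± 0.31, adjusted p = 7.38e-05), and its arrays did not overlap. Fasn, fatty acid synthase, differed by -0.81 ± 0.23 and missed the threshold without mdx replicate 2 (adjusted p = 0.0823) or control replicate 1 (0.0572). The related desaturase Scd2 rose by 0.65 ± 0.16 on 1 probe set and 0.84 ± 0.21 on another, though the first missed the threshold when each array was centred on its median (adjusted p = 0.0769). Dhcr7, of cholesterol synthesis, rose by 1.16 ± 0.41, at an adjusted p of 0.0472, and missed the threshold without any 1 of 5 arrays, all but control replicate 3. In the list of pentose phosphate and antioxidant enzymes 9 of 36 rose and 4 fell. The rises numbered 4 without mdx replicate 1, 5 without mdx replicate 2, 3 without control replicate 1 and 4 without control replicate 2, and the falls 2 without mdx replicate 1. Mt2, the metallothionein that binds zinc and copper, read 16346, 21862 and 19002 in mdx arrays, against 2683, 3766 and 3058 in control arrays (2.58 ± 0.24, adjusted p = 3.22e-09). Cyba, a subunit of the superoxide-producing oxidase of phagocytes, rose by 0.98 ± 0.21. Cat, catalase, read 2285, 1920.3 and 3297 in mdx arrays, against 5634, 4993 and 4984 in control arrays (-1.08 ± 0.19, adjusted p = 2.04e-04), while a second probe set gave 0.37 ± 0.24 (adjusted p = 0.294). Glutathione transferases Gstm1 and Gstm2 differed by -0.68 ± 0.16 and -1.25 ± 0.33. Gstm2 missed the threshold without mdx replicate 1 (adjusted p = 0.0564). Other probe sets of these genes gave 0.41 ± 0.28 and 1.40 ± 0.47, and that of Gstm2 was called.

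Promoters of the fuel-use genes that fell were searched for AAGGTCA, on either strand, letters at the core of the element read by estrogen-related receptors, which are known regulators of mitochondrial genes. RefSeq promoter windows of GRCm38.p6 run from 250 bases before a gene's start to 50 after it and were found for 63 of the 74 genes. The letters were present in 3 of 77 windows of these genes (3.90%), 3.57% of the windows of all genes tested, 3.74% of those of genes that rose and 4.72% of all windows in the table. The share among fuel-use genes that fell was therefore near that of all genes tested and no higher than that of the whole table. Genes of the 8 metabolic lists that fell and hold the letters before the start include Acadm, Ndufb2 and, from the energy-transfer list, Ak1. Not every fuel-use window with the letters is shown. For these genes the 250 bases before the start are given, 5′ to 3′ on the strand of the gene, with the letters in capitals. For Acadm (chr3:153944644-153944893, minus strand) they stand as the reverse complement TGACCTT, from base -249 relative to the start. For Ak1 (chr2:32628140-32628389, plus strand) they begin at -90 and for Ndufb2 (chr6:39592315-39592564, plus strand) at -181. Ndufb2, an accessory subunit of complex I, is named for this match and differed by -0.67 ± 0.21, adjusted p = 0.0243.
Acadm: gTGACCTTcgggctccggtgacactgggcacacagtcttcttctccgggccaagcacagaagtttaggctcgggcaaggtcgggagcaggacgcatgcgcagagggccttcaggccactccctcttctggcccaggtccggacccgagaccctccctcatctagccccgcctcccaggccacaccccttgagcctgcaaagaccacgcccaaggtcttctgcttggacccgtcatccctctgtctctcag
Ak1: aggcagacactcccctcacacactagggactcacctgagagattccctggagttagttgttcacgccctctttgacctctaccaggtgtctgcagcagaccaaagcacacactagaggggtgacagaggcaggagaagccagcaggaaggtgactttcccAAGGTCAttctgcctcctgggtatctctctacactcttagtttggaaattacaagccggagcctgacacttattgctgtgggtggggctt
Ndufb2: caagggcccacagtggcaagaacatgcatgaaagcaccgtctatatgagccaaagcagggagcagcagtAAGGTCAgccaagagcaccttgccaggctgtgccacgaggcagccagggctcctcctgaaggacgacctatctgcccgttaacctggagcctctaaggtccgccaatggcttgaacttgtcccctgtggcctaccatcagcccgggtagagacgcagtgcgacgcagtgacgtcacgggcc

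Markers of cell types other than muscle moved unequally. Of 23 genes of the macrophage and monocyte list 17 rose (median 1.65), and between 14 and 18 did so in every alternative fit. The summed signal of the list was 85608, 82606 and 69649 in mdx arrays, against 22903, 28069 and 24229.8 in control arrays, with every mdx array above every control array. Ctss, cathepsin S of antigen-presenting cells, read 16069.8, 16031 and 12751 in mdx arrays, against 2746, 3095 and 2795 in control arrays (2.36 ± 0.21, adjusted p = 1.86e-09). Lgals3, galectin 3, read 5457, 5704 and 3647 in mdx arrays, against 354, 404 and 433 in control arrays (3.51 ± 0.33, adjusted p = 4.84e-09). Ccr2, the receptor that brings monocytes from the blood, read 2660.2, 2241 and 2301 in mdx arrays, against 297, 699 and 504 in control arrays (2.26 ± 0.29). Tyrobp, an adaptor of myeloid receptors, rose by 2.09 ± 0.25 and Lyz2, the lysozyme of myeloid cells, by 1.48 ± 0.20.

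Other immune lists had few calls or none. None of 11 T and NK cell genes, 12 B and plasma cell genes, 11 neutrophil genes and 6 mast cell, basophil and eosinophil genes was called by limma, and at an unadjusted p under 0.05 they had 2, 3, 1 and 0 differences. Neutrophil markers summed to 10245, 8234 and 5883 in mdx arrays, against 5411, 6061 and 7458 in control arrays, with overlap between the groups. B and plasma cell markers summed to 24676, 24777 and 28209 in mdx arrays, against 33969, 46246 and 36689 in control arrays, without overlap, although no single gene was called. The alternative fits gave each of these lists at most 3 calls. Class II antigen presentation genes summed to 45774, 47118 and 42897 in mdx arrays, against 28368, 30233 and 26835 in control arrays, also without overlap. Of 14 class II antigen presentation genes 2 rose (14.3%, against 9.27% of all probe sets), Itgax (1.14 ± 0.35) and Cd83 (1.58 ± 0.46). Neither was called without mdx replicate 1 (adjusted p 0.0897 and 0.0517) or control replicate 2 (0.0648 and 0.0895). At an unadjusted p under 0.05 that list had 8 rises.

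Fibroblast markers rose and fell: 8 of 21 rose and 3 fell, and their sum was 109351, 142877 and 124363 in mdx arrays, against 116403, 111688 and 107447 in control arrays. S100a4, a calcium-binding protein of fibroblasts and macrophages, read 4212, 5098 and 3766 in mdx arrays, against 828, 952 and 1019 in control arrays (2.18 ± 0.23, adjusted p = 5.17e-08). Dlk1, a growth-inhibiting surface protein, rose by 1.19 ± 0.22, the secreted protein Islr by 0.63 ± 0.13 and the homeobox gene Meox1 by 0.77 ± 0.16. Igfbp6, an IGF-binding protein, read 4279.9, 5034 and 5055 in mdx arrays, against 9299, 9550.2 and 7521 in control arrays (-0.87 ± 0.15, adjusted p = 1.63e-04), Gsn, gelsolin, differed by -0.70 ± 0.18 and Clec3b, tetranectin, by -0.75 ± 0.20. Gsn missed the threshold without mdx replicate 1 (adjusted p = 0.0749) and Clec3b without mdx replicate 3 (0.0623). The list's genes therefore did not move as a block.

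Markers of fat and of the lining were lower. Of 13 adipocyte genes 7 fell (median -0.96), 4 without control replicate 2, and the list summed to 32848, 28214 and 39410.3 in mdx arrays, against 67317, 72682 and 57754 in control arrays. Adipoq, adiponectin, read 1748, 1991 and 2881 in mdx arrays, against 7224, 9512 and 6119 in control arrays (-1.78 ± 0.42, adjusted p = 0.00365). Plin4, a coat protein of lipid droplets, differed by -0.92 ± 0.19 and Cidec, another droplet protein, by -2.11 ± 0.59. Cidec missed the threshold without mdx replicate 1 (adjusted p = 0.0961) or control replicate 2 (0.0759). Slc2a4 and Car3, counted in this list too, are also muscle genes. Of 11 mesothelial genes 5 fell (median -0.83), and their sum was 16563, 16219.9 and 20184 in mdx arrays, against 31846, 35136 and 31246 in control arrays. Krt19, a keratin of simple epithelia, read 80.4, 70.5 and 474 in mdx arrays, against 1265, 1234 and 1099 in control arrays (-2.77 ± 0.51, adjusted p = 2.92e-04). Slpi, a secreted protease inhibitor, read 1717, 1914 and 2696 in mdx arrays, against 5725, 6034 and 5019.6 in control arrays (-1.42 ± 0.21, adjusted p = 1.81e-05), while its other probe sets gave 0.27 ± 0.26 and -0.40 ± 0.37, neither called. Upk3b, a surface protein of mesothelium, differed by -0.65 ± 0.15 and Aldh1a1, a retinaldehyde dehydrogenase, by -0.98 ± 0.21. A second Aldh1a1 probe set gave 0.68 ± 0.50 (adjusted p = 0.359). Msln, mesothelin, read 161, 125 and 146 in mdx arrays, against 1032, 593 and 332 in control arrays (-1.83 ± 0.48), and its adjusted p was 0.0716 without control replicate 1.

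The liver list followed 1 control array. Its sum was 14718, 16084 and 16599.9 in mdx arrays, against 93938, 38707 and 17915 in control arrays, and control replicate 1 held the most. Of 31 liver genes 1 fell, 3 without control replicate 3, and the median of -0.94 became -0.35 without control replicate 1. Rbp4, the retinol carrier of plasma, read 90.8, 79.2 and 51.6 in mdx arrays, against 2208, 750.5 and 374 in control arrays (-3.09 ± 0.90, adjusted p = 0.0164), and Mup3, of the major urinary protein family, read 111, 127 and 96.7 in mdx arrays, against 13235, 3879 and 489 in control arrays (-4.39 ± 1.13, adjusted p = 0.00714). Without control replicate 1 their adjusted p-values were 0.114 and 0.0751. Mup3 was read by a probe set that the array maker marks as shared by a gene family, so its members cannot be told apart. A second Mup3 probe set gave -2.79 ± 1.13 and was not called by limma (adjusted p = 0.0852). The fall counted in the list was that of Rbp4. What part liver tissue carried along has in the other falls was not tested. Control replicates 2 and 3 also had larger liver sums than any mdx array.

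Markers of vessels were called in both directions, the calls among red cell markers were falls, and nerve markers were called no more often than all probe sets. Of 17 endothelial genes 4 fell (23.5%, against 7.38% of all probe sets), 2 without control replicate 2, and 1 rose. Vwf, von Willebrand factor, read 1149, 1163 and 1162 in mdx arrays, against 2099, 2852 and 2049.5 in control arrays (-0.97 ± 0.20, adjusted p = 9.18e-04). The surface protein Icam2, the angiopoietin receptor Tek and its relative Tie1 differed by -0.95 ± 0.25, -0.74 ± 0.20 and -0.53 ± 0.15. A second Tie1 probe set gave 0.02 ± 0.23 (adjusted p = 0.960). Icam2 and Tie1 missed the threshold without control replicate 2 (adjusted p 0.0570 and 0.0539), Tek without mdx replicate 2 (0.0923) and Tie1 without mdx replicate 1 (0.0783). Vcam1, the adhesion molecule of inflamed endothelium, rose by 1.20 ± 0.22. Of 14 smooth muscle genes 2 rose, led by Acta2 (0.94 ± 0.21), the actin of smooth muscle and myofibroblasts, and 2 fell, led by Myh11 (-1.21 ± 0.28), the smooth muscle myosin. Acta2 read 4785, 5014 and 3682 in mdx arrays, against 2225, 1980.1 and 2797 in control arrays, and Myh11 read 452, 622 and 409 in mdx arrays, against 855, 1379 and 1359 in control arrays. Both counts were 1 without mdx replicate 1 or control replicate 1, and the falls numbered 1 without control replicate 2. Of 11 Schwann cell and nerve genes 1 rose (9.09%, against 9.27% of all probe sets). This was Egr2 (1.10 ± 0.34), which is also on the immediate early list. It missed the threshold without mdx replicate 1 or 3 or control replicate 1 (adjusted p 0.0798, 0.0796 and 0.165). Of 9 erythroid genes 3 fell, with Alas2, the haem synthesis enzyme of red cell precursors, at 1100.0, 1291 and 1393 in mdx arrays, against 2785, 2386 and 5810.3 in control arrays.

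**Figure D4:**
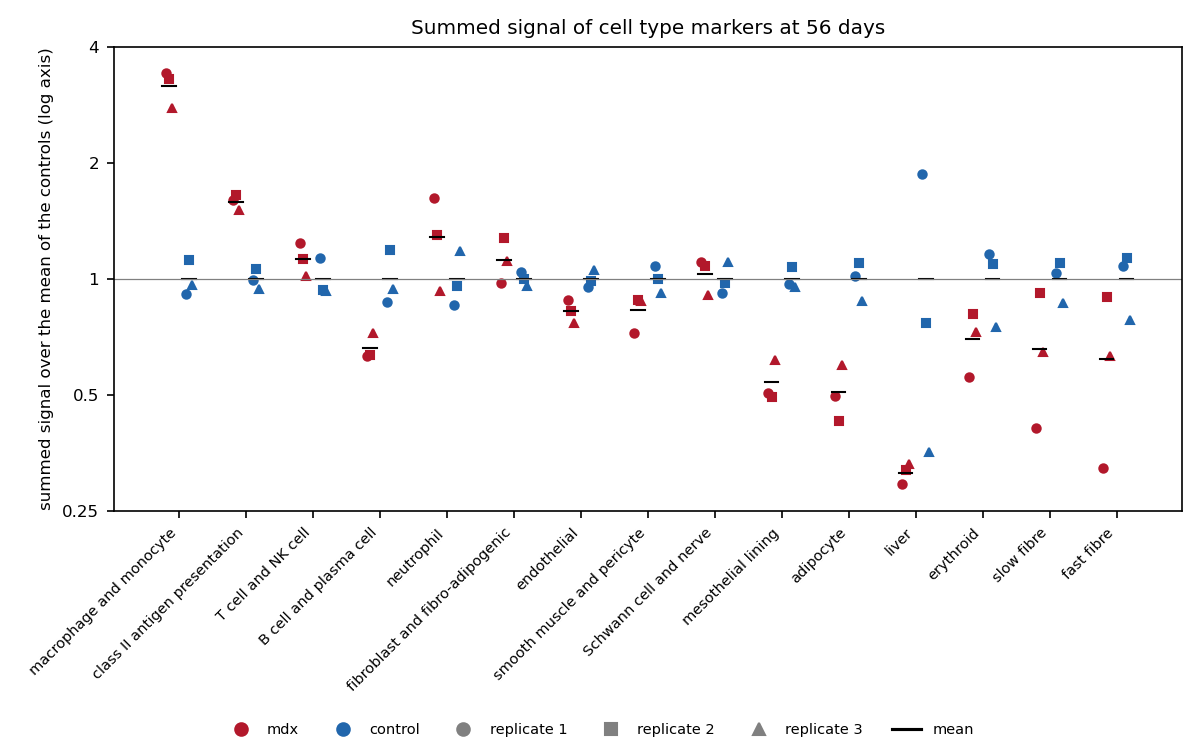
For each marker list, the summed signal of its kept genes on 1 array over the mean of the 3 control arrays, on a log axis, with mdx in red left of control in blue, a marker shape for each replicate number and a bar for the group mean. Macrophage sums lie far above the controls in all 3 mdx arrays and adipocyte and mesothelial sums below them, the liver sum is spread widest among the controls, and mdx replicate 1 is lowest for both fibre lists.

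Genes of regenerating fibres were mostly called higher, and the calls among slow and fast fibre genes were mostly lower. Of 29 genes of satellite cells and regeneration 18 rose and 1 fell (median 1.03). Chrng, the fetal subunit of the acetylcholine receptor, read 3341, 2850.1 and 1923 in mdx arrays, against 112, 122 and 215 in control arrays (3.92 ± 0.41, adjusted p = 5.08e-08), and Chrna1, its alpha subunit, rose by 1.76 ± 0.16. The fall was of Tnnt1, slow troponin T, on a probe set that read 1879, 41046 and 13849 in mdx arrays, against 46337, 46916 and 30689.6 in control arrays, and a second probe set gave 0.15 ± 0.12. That call was lost without mdx replicate 1 (adjusted p = 0.301), control replicate 1 (0.0723) or control replicate 2 (0.0741). Of 12 slow fibre genes 7 fell, 3 without mdx replicate 1 and 4 without control replicate 1 or 2, and the list summed to 116092, 259895 and 183120.0 in mdx arrays, against 293229, 311018 and 245119 in control arrays. Myl3, the slow myosin light chain, read 7876, 6739 and 7488 in mdx arrays, against 16768, 19279.6 and 17827 in control arrays (-1.28 ± 0.16, adjusted p = 1.33e-06) and passed in each of these fits. Of 17 fast fibre genes 5 fell, 2 without mdx replicate 1, 2 without control replicate 1, 3 without control replicate 2 and 11 without mdx replicate 2. That list summed to 158351, 439676 and 308719 in mdx arrays, against 527579, 555487 and 382890.0 in control arrays. Pvalb, parvalbumin, the calcium buffer of fast fibres, read 2422, 2751 and 3012 in mdx arrays, against 15791, 16148 and 11785 in control arrays (-2.39 ± 0.25, adjusted p = 5.08e-08). The brighter Pvalb probe set, the one counted in the list, differed by -1.74 ± 0.57, adjusted p = 0.0334, and missed the threshold without mdx replicate 1 (adjusted p = 0.324), control replicate 1 (0.0956) or control replicate 2 (0.121) and after quantile normalization (0.0668).

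The machinery of contraction changed in parts. Of 23 genes of calcium handling and excitability 8 fell, with 4 falls without mdx replicate 1, control replicate 1 or control replicate 2. Cacna1s, the calcium channel subunit that senses voltage, differed by -0.59 ± 0.13, and the gamma subunit Cacng1 read 5715, 3010.0 and 3699.9 in mdx arrays, against 1968, 2138 and 2018 in control arrays (0.96 ± 0.19). The potassium channels Kcna5 and Kcna7 differed by -0.79 ± 0.18 and -0.82 ± 0.21. In the membrane complex and costamere list 3 of 22 fell, Dmd, Sspn (-0.73 ± 0.13), sarcospan, and Sgca (-0.64 ± 0.15), alpha sarcoglycan. Of the 4 rises Cav3 (0.69 ± 0.12), the muscle caveolin, passed without each single array in turn, and the others, Lama2, Itga7 (0.56 ± 0.18) and Dtna (0.81 ± 0.28), did not. The count of rises was 1 without mdx replicate 1, control replicate 1 or control replicate 2. Among sarcomere genes Mybph, the relative of myosin-binding protein C, read 4247, 3796 and 3762 in mdx arrays, against 876, 666 and 882 in control arrays (2.25 ± 0.23, adjusted p = 2.03e-08), and Actn3, the fast-fibre actinin, read 11217, 15635 and 12618 in mdx arrays, against 29645, 32238 and 18151 in control arrays (-0.99 ± 0.24).

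In the lists of the cytoskeleton, of growth signals and of cell division most calls were rises. Rises made up 44.1%, 24.1% and 42.5% of their genes, against 9.27% of all probe sets. Falls made up 5.88%, 6.90% and 2.50%, against 7.38%. Of 34 actin, tubulin and thymosin genes 15 rose and 2 fell (median 0.58). The falls, Cfl2 (-0.54 ± 0.15), an actin-severing protein, and Tuba8 (-0.50 ± 0.15), an alpha tubulin, both missed the threshold without mdx replicate 2 (adjusted p 0.101 and 0.0846), and Tuba8 also without mdx replicate 1 (0.104) or control replicate 2 (0.0650). Tubb6, a beta tubulin, read 11865, 13877 and 13612 in mdx arrays, against 3297, 3059.6 and 2604 in control arrays (2.13 ± 0.16, adjusted p = 6.61e-11). Tmsb10, thymosin beta 10, which binds actin monomers, read 20908, 27539 and 19990.4 in mdx arrays, against 6123, 7065 and 4547 in control arrays (1.95 ± 0.21, adjusted p = 5.69e-08). The tubulins Tubb2a, Tubb5 and Tubb3 rose by 1.91 ± 0.22, 1.32 ± 0.15 and 1.22 ± 0.15, on probe sets that the array maker marks as shared within a family, as is that of Tubb6. Of 29 genes of insulin, IGF and growth hormone signalling 7 rose and 2 fell (median 0.34), and the median was 0.07 after quantile normalization. Peg3, an imprinted zinc-finger gene, read 8709, 9364 and 7535 in mdx arrays, against 2476, 2400.4 and 2398 in control arrays (1.80 ± 0.13, adjusted p = 2.16e-11). Cdkn1c, an imprinted inhibitor of the cell cycle, read 9413, 8597 and 7906 in mdx arrays, against 2378, 2158 and 2313 in control arrays (1.90 ± 0.16, adjusted p = 3.44e-10). Mest, also imprinted, rose by 2.35 ± 0.28 and Igf2r by 0.59 ± 0.11. Mstn, myostatin, which restrains muscle growth, read 518, 572 and 512 in mdx arrays, against 1010.5, 1222 and 1147 in control arrays (-1.03 ± 0.19, adjusted p = 3.72e-04). Of 40 cell cycle genes 17 rose and 1 fell (median 0.65), and 11 rose without mdx replicate 1. Ccna2, cyclin A2, read 2822, 1292 and 1845 in mdx arrays, against 583, 729 and 289 in control arrays (1.85 ± 0.33), Ccnb2 rose by 1.26 ± 0.24, the kinesins Kif22 and Kif4 by 1.24 ± 0.21 and 1.55 ± 0.33, and the helicase subunit Mcm3 by 1.04 ± 0.22. Ccnd2, cyclin D2, differed by -1.25 ± 0.36 and missed the threshold without control replicate 1 or 2 (adjusted p 0.106 and 0.0877).

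Several inflammatory mediators rose beside the myeloid markers, and the part of macrophage number in them was not tested. Of 19 chemokine and cytokine genes 7 rose and 1 fell, with 4 rises without mdx replicate 1, mdx replicate 2 or control replicate 1. Ccl2, which attracts monocytes through Ccr2, read 3528, 3742 and 3308 in mdx arrays, against 469, 487 and 537 in control arrays (2.75 ± 0.46, adjusted p = 8.93e-05). Its relatives Ccl7 and Ccl12 rose by 2.33 ± 0.47 and 1.78 ± 0.42. Cxcl12, a chemokine of stromal cells, read 3215, 2736 and 3256 in mdx arrays, against 6647, 5083 and 6628 in control arrays (-0.98 ± 0.16, adjusted p = 6.23e-05), so 1 chemokine fell while monocyte attractants rose. Complement C1qa, C1qb and C1qc, the chains of C1q, rose by 1.26 ± 0.17, 1.58 ± 0.23 and 0.82 ± 0.19. C3ar1, a receptor for a complement fragment, rose by 1.83 ± 0.29, and Clu, clusterin, differed by -0.73 ± 0.16. Of 34 lysosome genes 13 rose, led by Cstb (1.23 ± 0.15), Cd68 (1.65 ± 0.27), Ctsk (1.34 ± 0.24), Lgmn (1.11 ± 0.20) and Ctsc (1.24 ± 0.22). Of 18 annexins and S100 proteins 6 rose, among them Anxa1 (0.90 ± 0.17) and Anxa4 (0.94 ± 0.13). Of 30 interferon and class I genes 9 rose, and 5, 4 and 5 did so without mdx replicate 1, mdx replicate 3 or control replicate 1. Ifi30, a lysosomal reductase, rose by 1.30 ± 0.32 and Ifit3 by 1.56 ± 0.38.

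Stress and housekeeping lists stayed near the background or split. Of 35 heat shock and immediate early genes 7 rose and 6 fell. Cdkn1a, the p53 target that stops the cell cycle, rose by 1.18 ± 0.22 and Klf4, a Kruppel-like factor, differed by -1.11 ± 0.26. That list had 2 rises and 1 fall without control replicate 1, and 3 of each without mdx replicate 1. It had 3 rises without mdx replicate 3 and 3 falls without mdx replicate 2 or control replicate 3. Of 21 endoplasmic reticulum genes 2 rose and 3 fell. The rises were no longer called without mdx replicate 2 or control replicate 2, 1 was called without mdx replicate 1, and 1 fall was called without mdx replicate 2. Atf4, a transcription factor of the stress response, read 6806, 7145 and 7639 in mdx arrays, against 11534, 10929 and 11710.4 in control arrays (-0.66 ± 0.17, adjusted p = 0.00723). Of 32 proteasome and ubiquitin genes 1 rose and 2 fell, of which Ube2b, a ubiquitin-conjugating enzyme (-0.94 ± 0.12), passed without each single array. The others, Psmd13 (0.48 ± 0.17) and Psmb7 (-0.30 ± 0.10), missed the threshold without mdx replicate 1 (adjusted p 0.215 and 0.153), mdx replicate 2 (0.0570 and 0.0536), control replicate 1 (0.132 and 0.132), control replicate 2 (0.0709 and 0.0571) or control replicate 3 (0.0891 and 0.0695). Of 28 ribosomal genes 2 rose and 2 fell, 7.14% each, against 9.27% and 7.38% of all probe sets. The falls were Rpl41 and Rps28. Rpl41 read 578, 15136 and 1082 in mdx arrays, against 32383, 30096 and 15979 in control arrays, with mdx replicates 1 and 3 far below mdx replicate 2. Both missed the threshold without mdx replicate 1 (adjusted p 0.145 and 0.337), mdx replicate 3 (0.0803 and 0.0590), control replicate 1 (0.0709 and 0.0890) or control replicate 2 (0.0672 and 0.110). In the fit without mdx replicate 2, 6 ribosomal genes fell, and the rises numbered 1 in each fit without an array other than control replicate 3. None of 16 circadian clock genes was called by limma, and 3 differed at an unadjusted p under 0.05. Of 35 solute carriers 5 fell (14.3%), among them Slc25a11, the mitochondrial oxoglutarate carrier (-1.08 ± 0.16). The 3 rises (8.57%, below the share of all probe sets) included Slc11a1, an iron and manganese pump of macrophages (1.37 ± 0.33). The falls numbered 3 without control replicate 1.

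Smaller groups completed the lists. Vegfb, a growth factor tied to fatty acid uptake, read 6642, 6574 and 8028 in mdx arrays, against 14637, 12202 and 11401 in control arrays (-0.84 ± 0.15, adjusted p = 2.09e-04). Agt, angiotensinogen, read 131, 284 and 214 in mdx arrays, against 1546, 1232 and 759.9 in control arrays (-2.32 ± 0.49, adjusted p = 0.00137), and Fgf1 differed by -0.78 ± 0.17. These were the 3 falls among 23 vascular factors, where Fgfr4 rose by 1.33 ± 0.36 and missed the threshold without mdx replicate 1 (adjusted p = 0.114). Rises numbered 2 without control replicate 2. Of 35 Hox and positional homeobox genes 3 rose (8.57%) and 1 fell (2.86%), neither share above the 9.27% and 7.38% of all probe sets. Hox rises numbered 1 without mdx replicate 1 and 5 without control replicate 3. The fall was Tbx15, a T-box gene (-0.80 ± 0.19). Falls numbered 2 without mdx replicate 1, mdx replicate 2 or control replicate 1. Of 8 tendon and cartilage genes Fmod fell and Scx rose. Scx, scleraxis, the tendon transcription factor, read 7985, 3699.9 and 7833 in mdx arrays, against 1114, 4377 and 2044 in control arrays (1.50 ± 0.42, adjusted p = 0.0138), with overlap between the groups, and missed the threshold without mdx replicate 1 (adjusted p = 0.0755), mdx replicate 3 (0.0583) or control replicate 1 (0.138).

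Of the 1547 called probe sets, 922 belonged to genes on none of the 53 lists or had no single gene symbol. Among genes on no list, C1qtnf3 rose most: this secreted protein with a C1q-like domain read 4797, 3336 and 3635 in mdx arrays, against 299, 335 and 329.8 in control arrays (3.47 ± 0.21, adjusted p = 2.34e-13). Npnt, nephronectin, a matrix ligand of integrins, read 1612, 1700.4 and 1279 in mdx arrays, against 254, 212 and 96.3 in control arrays (2.90 ± 0.38, adjusted p = 2.72e-06). Runx1, a transcription factor of blood stem cells that denervated muscle also makes, read 877, 765 and 668 in mdx arrays, against 28.6, 67.1 and 202 in control arrays (2.83 ± 0.38, adjusted p = 3.07e-06). Genes on no list were also named only where the groups did not overlap, so their separate arrays follow from that choice. Sirpa, the myeloid receptor for CD47, rose by 2.67 ± 0.50 and on its other probe sets by 2.05 ± 0.52 and 1.29 ± 0.38. Lilr4b, an inhibitory receptor of myeloid cells, read 2359, 2441 and 2032 in mdx arrays, against 288, 333 and 376 in control arrays (2.67 ± 0.31, adjusted p = 2.69e-07). Hcls1, a signalling protein of blood cells, rose by 2.36 ± 0.56. Sirpa, Lilr4b and Hcls1 are genes of blood-derived cells, and the part of the macrophage rise in them was not tested.

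Other rises on no list included genes known from development, division and the cytoskeleton. Sox11, a transcription factor of embryonic tissue, read 1373, 1802 and 1379.9 in mdx arrays, against 234, 172 and 265 in control arrays (2.61 ± 0.27, adjusted p = 3.49e-08). Bex1, a small protein of neurons and regenerating muscle, read 1649, 2569 and 1539 in mdx arrays, against 288, 311 and 308 in control arrays (2.51 ± 0.25, adjusted p = 2.11e-08). Capn6, a calpain without protease activity, was read by 3 probe sets, which rose by 2.52 ± 0.57, 2.35 ± 0.20 and 1.71 ± 0.21. Cyfip2, of the complex that starts actin branching, rose by 2.62 ± 0.48. Anln, anillin, which builds the cleavage ring of dividing cells, read 637, 549.5 and 293 in mdx arrays, against 51.0, 86.2 and 55.5 in control arrays (2.40 ± 0.40), Ckap2, a spindle protein, rose by 2.33 ± 0.39, and Cip2a, an inhibitor of a tumour-suppressing phosphatase, by 2.27 ± 0.43. Hus1, part of the DNA damage clamp, rose by 2.28 ± 0.61 on 1 probe set, gave -0.24 ± 0.24 on the other, and missed the threshold without mdx replicate 2 (adjusted p = 0.0751). Bphl, a hydrolase, rose by 2.32 ± 0.79 on 1 of 4 probe sets, with the others at 0.30 ± 0.33, 0.16 ± 0.26 and -0.09 ± 0.20, and its call was lost without any 1 of 5 arrays, all but control replicate 3.

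The falls on no list were led by Ces1d, a carboxylesterase that hydrolyses lipids, which read 53.5, 95.5 and 259 in mdx arrays, against 1688, 1452 and 1804 in control arrays (-3.51 ± 0.47, adjusted p = 3.04e-06). A second probe set gave -2.80 ± 0.61. Amy1, an amylase that cuts starch and glycogen, read 412, 692 and 908 in mdx arrays, against 4045, 3459 and 3944 in control arrays (-2.52 ± 0.36, adjusted p = 1.20e-05). These falls, too, were named only where the groups did not overlap. Ephx1, the microsomal epoxide hydrolase, read 249, 286 and 333 in mdx arrays, against 1552, 2009.5 and 1349.7 in control arrays (-2.37 ± 0.37, adjusted p = 4.47e-05). Zbtb17, a partner of Myc, differed by -2.39 ± 0.40, and Pla2g12a, a secreted phospholipase, by -2.10 ± 0.24 and -1.17 ± 0.30 on its 2 probe sets. Alpl, alkaline phosphatase, read 424, 193 and 251 in mdx arrays, against 1366, 1201 and 1263 in control arrays (-2.09 ± 0.37, adjusted p = 1.86e-04).

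Falls on no list were also seen among receptors, regulators and a fat gene. Adig, adipogenin, known from fat cells, read 1012, 707 and 937 in mdx arrays, against 3696, 4144 and 2591 in control arrays (-1.92 ± 0.30, adjusted p = 4.20e-05). P2ry1, a receptor for ADP, differed by -1.96 ± 0.42, Rasd1, a Ras protein induced by glucocorticoids, by -2.07 ± 0.42, and Rspo1, an enhancer of Wnt signals, by -1.89 ± 0.42. Mrvi1, a target of cyclic GMP kinase, differed by -1.94 ± 0.40 and Nolc1, a nucleolar protein, by -1.90 ± 0.47. Znrf1, a ubiquitin ligase, read 408, 899 and 966 in mdx arrays, against 2757, 2746 and 3236 in control arrays (-1.98 ± 0.28, adjusted p = 6.48e-06), but its other probe sets gave 0.57 ± 0.20 (adjusted p = 0.0438) and -0.62 ± 0.39 (0.282), so the direction of Znrf1 is not settled. Igkv14-111, an immunoglobulin light chain segment, differed by -1.97 ± 0.46, with -1.35 ± 0.41 and 0.09 ± 0.30 on its other probe sets. Without control replicate 1, the array with the most albumin, Ces1d, Amy1, Ephx1, Zbtb17, Pla2g12a and Alpl had adjusted p-values of 4.70e-05, 1.75e-04, 3.44e-04, 1.79e-04, 3.65e-06 and 0.00161. Control replicates 2 and 3 also read more albumin than any mdx array, and the part of liver tissue in these falls was not tested.

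The calls at 56 days were set beside those of the neighbouring ages. At 28 days 225 were higher (2.42%) and 50 lower (0.538%), and at 112 days 711 were higher (7.65%) and 420 lower (4.52%). The 56-day counts without mdx replicate 1, control replicate 1 or control replicate 2, given above, sum to fewer calls than the full 112-day fit. Of the 861 rises at 56 days 172 were also rises at 28 days, 20.0% of the 56-day list and 76.4% of the 28-day list. Of the 686 falls 35 were shared with 28 days, 5.10% and 70.0% of the lists. With 112 days 351 rises were shared (40.8% and 49.4%) and 235 falls (34.3% and 56.0%). A gene called at 1 age and not at another is not shown to differ between them, so the difference of the differences was tested by limma.

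The mdx difference at 56 days differed from that at 28 days at 8 probe sets (0.0861%), higher at 6 (0.0646%) and lower at 2 (0.0215%), while 1295 passed an unadjusted p under 0.05. Postn led them: its difference was 3.73 at 56 days and 1.92 at 28 days, a contrast of 1.81 ± 0.23, adjusted p = 8.19e-05. Postn averaged 20616 in mdx and 5455 in controls at 28 days, and 20709 in mdx and 1526 in controls at 56 days. The mdx means were close at both ages and the control means were not. Col1a2 (1.02 ± 0.21, adjusted p = 0.0397) averaged 20770.0 in mdx and 18870.4 in controls at 28 days, and 17559.9 in mdx and 7799 in controls at 56 days. Col6a3 averaged 19162 in mdx and 14278 in controls at 28 days, and 18698 in mdx and 6779 in controls at 56 days (1.03 ± 0.20, adjusted p = 0.0321). Col3a1 on its dimmest probe set (1.29 ± 0.21, adjusted p = 0.00286), Ndrg4 (1.24 ± 0.21, adjusted p = 0.00781) and cardiac actin Actc1 (1.22 ± 0.23, adjusted p = 0.0251) were the other genes with a wider rise at 56 days. Brighter Col3a1 probe sets gave 0.78 and 0.99 against 28 days, neither called (adjusted p 0.134 and 0.138). Other probe sets of Ndrg4, Actc1 and Col1a2 gave 0.81, 0.43 and 0.84, none called (adjusted p 0.507, 0.535 and 0.199). Adcy2, an adenylyl cyclase (-0.83 ± 0.17, adjusted p = 0.0397), and Abcd3, a lipid transporter of peroxisomes (-0.73 ± 0.15, adjusted p = 0.0397), had a deeper fall. Of these 8 Postn was called in each alternative fit, and Col3a1 in each but the fit of these ages alone. Without mdx replicate 1 there were 6 calls, without mdx replicate 2 or control replicate 1 or 2 there were 3, and without mdx replicate 3 or control replicate 3 there were 28 and 26.

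Against 112 days 9 probe sets differed (0.0969%), 5 of them higher (0.0538%) and 4 lower (0.0431%), with 1457 at an unadjusted p under 0.05. Gosr1, a vesicle protein of the Golgi (2.79 ± 0.49, adjusted p = 0.0109), Cyp4a12b, a fatty acid hydroxylase (2.77 ± 0.57, adjusted p = 0.0374), Trnt1, which completes transfer RNAs (1.75 ± 0.30, adjusted p = 0.00946) and Bmp4 (1.23 ± 0.24, adjusted p = 0.0262) had higher differences at 56 days. Gosr1 read 1659, 1572 and 2380.0 in mdx arrays, against 912, 1023 and 291 in control arrays at 56 days, a difference of 1.45 ± 0.35, adjusted p = 0.00413, and its difference at 112 days was -1.34 (adjusted p = 0.00836). Without control replicate 3 Gosr1 missed the threshold at 56 days (adjusted p = 0.0524). Cyp4a12b was not called at 56 days (1.09 ± 0.40, adjusted p = 0.0591). The G protein subunit Gna11 (-1.67 ± 0.33, adjusted p = 0.0317), the vesicle protein Use1 (-1.28 ± 0.24, adjusted p = 0.0159) and Col3a1 on its brightest probe set (-1.09 ± 0.22, adjusted p = 0.0317) had lower differences at 56 days, and 2 further probe sets carried no gene symbol. That Col3a1 probe set averaged 22972 in mdx and 14588 in controls at 56 days, and 25781 in mdx and 7677 in controls at 112 days. Its dimmer probe sets gave -0.30 and 0.18 against 112 days, neither called (adjusted p 0.488 and 0.799). Other probe sets of Bmp4, Gna11 and Use1 gave 0.02, -0.29 and -0.51, none called (adjusted p 0.988, 0.874 and 0.204). Without mdx replicate 1 or 3 there were 3 calls, and without mdx replicate 2 there were 16. The fuel-use genes Slc25a20 and Cd36 had no call on either contrast: Slc25a20 differed by -0.38 at 28 days, -1.26 at 56 days and -1.05 at 112 days, and Cd36 by -0.45, -1.32 and -0.91.

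**Figure D5:**
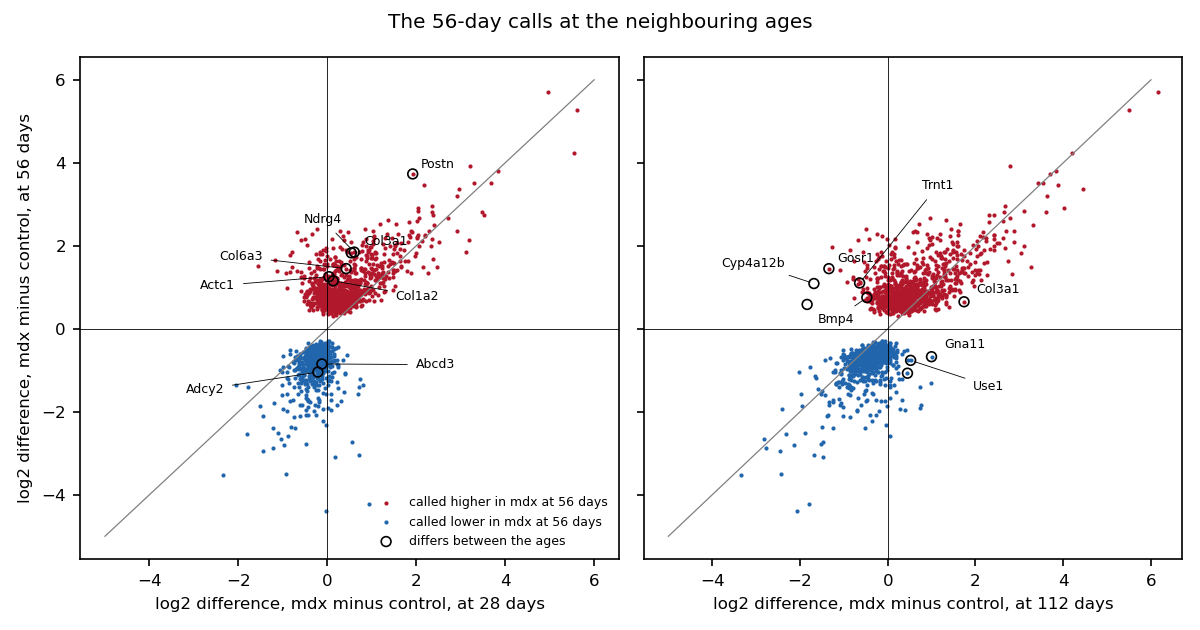
Each dot is a probe set called at 56 days, red for higher and blue for lower in mdx, with its log2 difference at 56 days on the vertical axis and its log2 difference at 28 days (left panel) or 112 days (right panel) on the horizontal axis. Circles mark the probe sets whose differences at the 2 ages were called different, 8 on the left and 9 on the right, also where the 56-day difference itself was not called, and the grey line marks equal differences: Postn lies well above it on the left, and Gosr1 lies left of 0 on the right.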

How the data were processed

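Total RNA of diaphragm was measured on Affymetrix MG-U74Av2 arrays, 3 mdx and 3 control arrays at each of 6 ages, 36 arrays in all. The deposited values are linear signal intensities, 1 per probe set, already scaled by the authors, since the mean of each array between its percentiles 2 and 98 was nearly the same on all arrays. The labels' protocols name only the standard procedure of the array maker, and the software and scaling target are not given in the sources used here. No scanner files were used, so background and detection calls were not examined, and the number of arrays limits the precision.

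Gene symbols came from the platform annotation: 10833 probe sets had 1 symbol, 396 several and 1193 none, and 66 control probe sets were left out. Values were taken as log2(signal + 32). Probe sets above 374.5, percentile 40 of all values, on at least 3 arrays were kept, 9291 in all. Means of the 12 groups were fitted with limma 3.58.1 in R 4.3.3 over all 36 arrays, with eBayes and a mean-variance trend, 24 residual degrees of freedom and Benjamini-Hochberg adjustment over all probe sets. A call is an adjusted p under 0.05, and the median standard error was 0.26. The procedure was tested on simulated data. For a list, each gene was taken once, by its probe set with the highest mean signal.

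The 53 gene lists hold 1543 genes, of which 1228 were on the array. Members and lists were chosen with earlier results of these data known. Named are Dmd and Utrn, the 15 widest rises and falls with separate groups overall and on no list, up to 5 called genes of each list and direction by lowest adjusted p, the genes called between ages and the liver genes. Any other gene is said to be named after its values were seen. Not every gene that this rule names is reported here. Promoters came from RefSeq (GRCm38.p6), and protein sequences were not used here. Alternatives changed the pseudocount, filter, normalization, weights, block and arrays in the fit.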

Additional observations from a re-analysis of the deposited data

Results flagged for a closer look

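The difference between mdx and control diaphragm at 56 days was tested against that at 28 days and at 112 days, and the probe sets called in either test are listed here. Against 28 days 8 probe sets were called. Their contrasts, the 56-day difference minus the 28-day difference on the log2 scale, were 1.81 for Postn, 1.29 for Col3a1, 1.24 for Ndrg4, 1.22 for Actc1, 1.03 for Col6a3, 1.02 for Col1a2, -0.83 for Adcy2 and -0.73 for Abcd3. Of these, 4 are matrix genes, and the 2 genes with a deeper fall at 56 days code for an adenylyl cyclase and a peroxisomal transporter. Other probe sets of Col3a1, Ndrg4, Actc1 and Col1a2 were not called in this test.

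Against 112 days 9 probe sets were called. The 56-day difference minus the 112-day difference was 2.79 for Gosr1, 2.77 for Cyp4a12b, 1.75 for Trnt1, 1.23 for Bmp4, -1.67 for Gna11, -1.28 for Use1, -1.09 for Col3a1 on its brightest probe set, and 2.42 and -1.52 for 2 probe sets with no gene symbol. Other probe sets of Bmp4, Gna11, Use1 and Col3a1 were not called in this test. Gosr1 averaged 1870 in mdx and 742 in controls at 56 days, and 734 in mdx and 1867 in controls at 112 days, so its direction differed between the ages. Trnt1 averaged 3160 in mdx and 1497 in controls at 56 days, and 2472 in mdx and 3886 in controls at 112 days.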

How the results depend on the processing

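None of the 280 genes and probe sets that the naming rule chose with a call at 56 days changed direction in any alternative. Genes named after their values were seen, such as Col1a1, and genes without a call were not part of that count. The median difference of all probe sets, 0.15, was -0.04 after median centring, and falls outnumbered rises after that centring and after quantile normalization. The cause of each change was not tested. Of the 280 genes and probe sets named with a call at 56 days, 154 were called in every alternative and 191 in each fit without 1 of the 6 arrays. Among named results, 65 missed the threshold without mdx replicate 1, 55 without control replicate 1, 48 without control replicate 2, 55 after quantile normalization and 63 in the fit of the 56-day arrays alone. Leaving out 1 array at a time gave 501 to 943 rises and 454 to 661 falls at 56 days, against 861 and 686 with all arrays. The fit of the 56-day arrays alone gave 396 falls. Fits chosen after seeing the data were median centring, with 478 rises and 1161 falls, and leaving out control replicate 1 and mdx replicate 1 together, with 330 and 327, of which 615 were among the 1547 calls. Replicate numbers were shared by the groups, and same-numbered arrays at 56 days deviated with r of -0.001, 0.016 and -0.014. No shared deviation was thus seen, which cannot show whether the numbers pair arrays. A replicate block gave 696 rises and 641 falls. The tests between ages were the least settled. Against 28 days the 8 calls became 3 to 28 without 1 array, 16 with a higher pseudocount, 5 with no filter, 24 with the filter at percentile 60, 18 after quantile normalization, 216 with array weights, 2 with the replicate block, 1 in the fit of these ages alone, 16 without arrays with albumin above 10000, 17 after median centring and 5 without both replicates 1. Against 112 days the 9 calls became 3 to 16 without 1 array, and in the same order 29 with that pseudocount, 31 with the higher filter, 19 after quantile normalization, 84 with array weights, 3 with the replicate block, 0 by limma in the fit of these ages alone, 131 without arrays high in albumin, 18 after median centring and 1 without both replicates 1. Of those contrasts Postn against 28 days was called in all 17 alternatives. Signal over background could not be examined, and dim genes have the widest errors.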

Other observations

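Genes on no list that were read by more than 1 probe set did not always give 1 direction: Znrf1 differed by -1.98 on the named probe set and by 0.57 on another, and Bphl by 2.32 on 1 probe set and by -0.09 on another. Among list genes the same was seen for Agrn, at 0.62 on its brighter and -0.92 on its dimmer probe set, for Gstm2, at -1.25 and 1.40, and for Cox6c, at -0.73 and 1.91. Of 94 other probe sets of 78 genes that the naming rule chose with a call, 30 were called in the same direction, 43 had the same direction without a call, 2 were called in the opposite direction and 19 had the opposite direction without a call. Among the 19 were those of Cfl2 (0.56), Slc2a4 (0.53), Ndufa3 (0.25), Tbx15 (0.13), Dtna (-0.11) and Gna11 (0.09), while other probe sets of Scd1 (-0.08), Cxcl12 (-0.27) and Sgca (-0.18) had the direction of the named one but no call.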
